A study of Homo sapiens with 4 samples.

Results

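The genes described here are 10 tetraspanins, CD82, CD9, CD63, CD81, CD151, TSPAN1, TSPAN3, TSPAN5, TSPAN8 and TSPAN13, out of 19741 genes named on the array. They were taken by name, as every probe set annotated to a single gene with that gene among the 10, which gave 19 probe sets. The study profiled RNA of human lung adenocarcinoma lines on 4 Affymetrix arrays, 1 for each population. From the invasive subline CL1-5 there was a population carrying an shRNA against G9a and another carrying a control shRNA; from the less invasive parent CL1-0 there was a population given HA-tagged G9a and another given the control vector. All 4 populations were stably transduced and selected with puromycin for 2 weeks, the knockdown rests on 1 hairpin, and whether a population is a pool or a clone is not given in the sources used here. G9a, encoded by EHMT2, is a histone H3 lysine methyltransferase that writes a repressive chromatin mark, and the comparisons ask how RNA levels differ when its level is lowered or raised.

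Tetraspanins are small membrane proteins with several membrane-spanning segments and a large extracellular loop. They bind one another and laterally associated partners, such as integrins, immunoglobulin-superfamily proteins, growth factor receptors and membrane proteases, and so set up membrane domains that bear on adhesion, migration, protease trafficking and the formation of extracellular vesicles. In carcinomas CD82 is known as a suppressor of metastasis, CD9 is often grouped with it, and CD151 and TSPAN8 are more often linked with motility and invasion.

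Of the 10 genes, TSPAN13, TSPAN5 and CD82 had the widest differences after the G9a knockdown, and the sequences just upstream of these 3 genes are shown because the results turn on these genes. RefSeq start sites of assembly GRCh38.p14 were used, and 7 of the 10 genes matched (CD81, CD151 and TSPAN3 did not). Each sequence is the 250 bases before the start site, on the strand of the gene, and capitals mark GC boxes, the motif GGGCGG on either strand. The positions are chr11:44565413-44565662 on the + strand for CD82, chr4:98658612-98658861 on the - strand for TSPAN5 and chr7:16753505-16753754 on the + strand for TSPAN13.
CD82: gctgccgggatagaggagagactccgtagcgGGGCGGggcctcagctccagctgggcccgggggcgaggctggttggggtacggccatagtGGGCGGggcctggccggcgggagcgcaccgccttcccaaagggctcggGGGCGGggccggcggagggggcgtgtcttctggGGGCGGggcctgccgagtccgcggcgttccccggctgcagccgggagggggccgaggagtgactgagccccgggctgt
TSPAN5: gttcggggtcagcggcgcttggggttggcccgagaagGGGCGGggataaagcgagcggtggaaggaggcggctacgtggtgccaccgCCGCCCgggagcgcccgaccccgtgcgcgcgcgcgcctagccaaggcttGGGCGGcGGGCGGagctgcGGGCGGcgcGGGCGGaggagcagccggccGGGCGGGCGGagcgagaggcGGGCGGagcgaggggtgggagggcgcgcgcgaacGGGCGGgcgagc
TSPAN13: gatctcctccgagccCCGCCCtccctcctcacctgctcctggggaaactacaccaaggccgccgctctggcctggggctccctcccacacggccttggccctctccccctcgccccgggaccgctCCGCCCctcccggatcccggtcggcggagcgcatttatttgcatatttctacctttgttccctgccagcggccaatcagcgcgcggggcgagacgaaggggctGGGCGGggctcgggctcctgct

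All 3 windows were rich in G and C and in CpG dinucleotides. The TSPAN5 window held 43 CpGs and 10 GC boxes, some of them overlapping, and 99.2% of the 35116 upstream windows in the table had no more CpGs. The CD82 window held 26 CpGs and 4 GC boxes (82.3% of windows had no more CpGs), and the TSPAN13 window 22 CpGs and 3 GC boxes (74.2%). The median over all windows was 11 CpGs, and 42.6% of them held a GC box. TSPAN13 also had a CCAAT box (CCAAT on either strand, present in 32.0% of windows), towards the right end of the printed stretch. None of the 3 windows held TATAAA or the AP-1 motif TGANTCA on either strand, which 10.7% and 6.57% of all windows held. Windows of CD9 and CD63, which stayed within 2-fold of the median gene in both lines, varied in CpG count. Any relation of CpG count to the differences was not tested. CD9 has 4 start sites with 10, 28, 29 and 1 CpGs, and the 8 windows of CD63 held between 4 and 30. The TSPAN1 window held 4 CpGs and the 2 TSPAN8 windows 1 and 2.

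Values are MAS5 signals on a linear scale, and each gene is represented by its brightest probe set. Signals under 3.36 (the 25th percentile of all values) were set to that floor in ratios, and a gene counted as measured in a comparison when its brighter array reached 12.5, the median of all values. The arrays differed in overall level. The log2 ratio of the median gene was 0.42 for the knockdown, -0.08 for HA-G9a and -0.01 between the controls, and a ratio called relative has that shift subtracted. Since each group is 1 array, within-line differences have no replicates and are not tested. As a yardstick, log2 ratios of probe sets for one gene scattered with a pooled SD of 0.541 for the knockdown and 0.506 for HA-G9a. Among probe sets reaching 84.2, the 75th percentile, the SDs were 0.302 and 0.248. This yardstick is the scatter between probe sets within 1 array pair. It leaves out variation between arrays or populations that all probe sets of a gene share. The brightest probe set of EHMT2 differed the way the labels say, at 376 and 28.1 in CL1-5 without and with the knockdown, and at 419.7 and 862 in CL1-0 without and with HA-G9a. Its other measured probe set read 34.2 and 9.98 in CL1-5, and 38.0 and 44.2 in CL1-0, where the relative log2 ratio of 0.30 was inside the yardstick of 0.506.

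**Figure D1:**
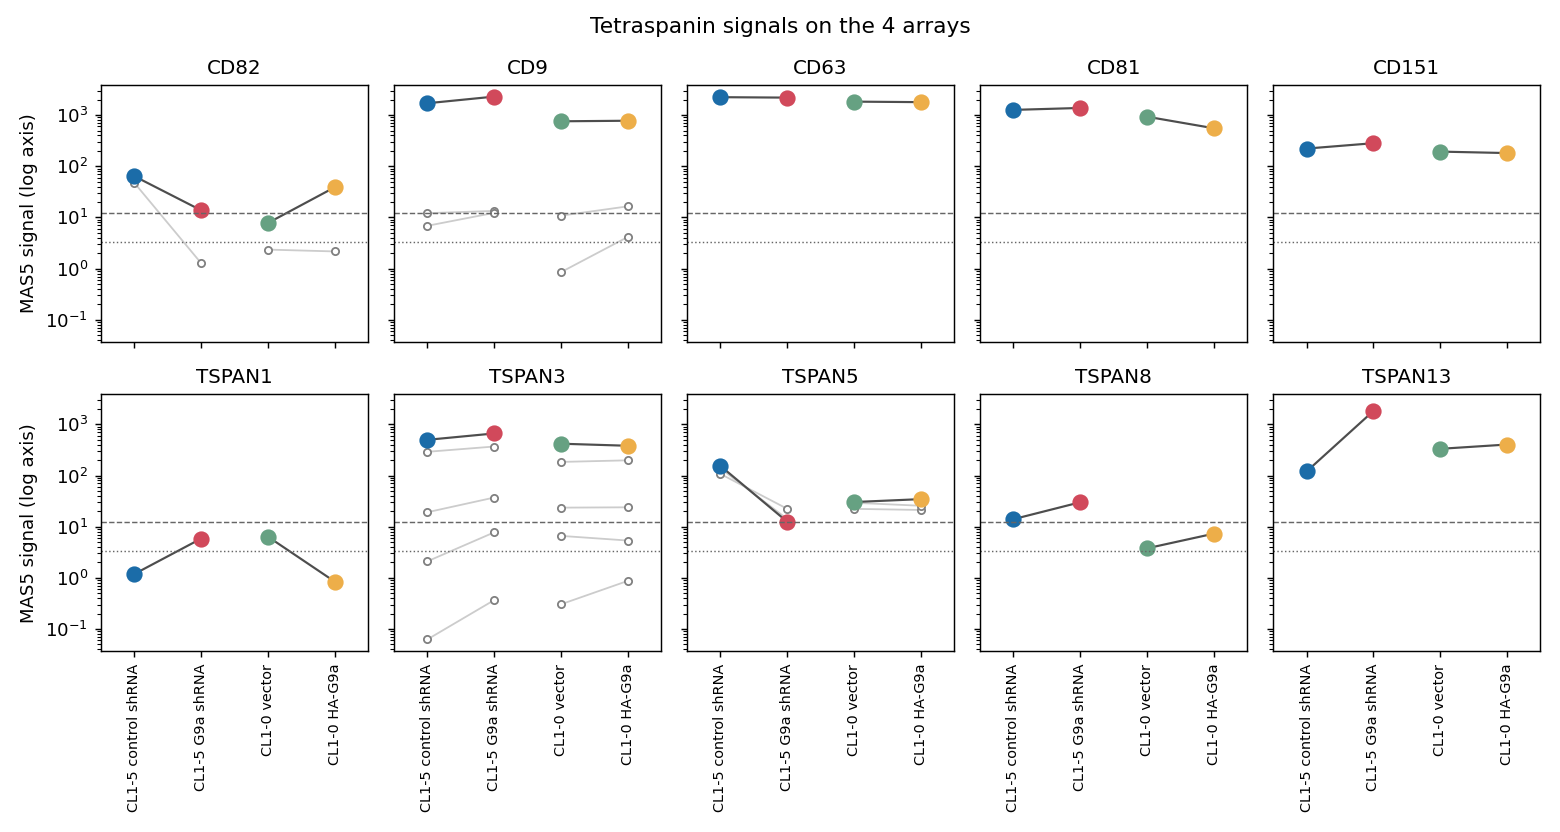
MAS5 signal (log axis) of each tetraspanin on the 4 arrays, with 1 array per group. Filled points are the probe set that represents the gene, open points its other probe sets, the dashed line the filter at 12.5 and the dotted line the floor at 3.36; in CL1-5 TSPAN13 is at 120.0 and 1829, TSPAN5 and CD82 go the other way, and CD9, CD63, CD151 and TSPAN3 stay nearly level within a line.

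Reducing G9a in CL1-5 went with a large difference in 3 of the 9 tetraspanins measured there. TSPAN13 was brighter, TSPAN5 and CD82 were dimmer, and the remaining 6 were within 2-fold of the median gene. Over all measured genes, 8.13% were at least 2-fold brighter and 7.76% at least 2-fold dimmer relative to the median, against 1 and 2 of the 9. The median relative log2 ratio of the 9 was -0.07, where all genes have 0 by construction. In RNA from a whole population, a difference in every cell and a difference in the share of cells that carry the transcript cannot be told apart.

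TSPAN13, a small tetraspanin also described as a modulator of voltage-gated calcium channels, read 120.0 in the CL1-5 control, 1829 after the knockdown, 332 in CL1-0 with vector and 403 with HA-G9a. The knockdown array was the highest and the CL1-5 control the lowest of the 4, with both CL1-0 arrays between them. The difference in CL1-5 was 15.2-fold as deposited and 11.4-fold relative to the median gene (relative log2 ratio 3.51), which placed TSPAN13 at rank 32 from the top of 13045 measured genes. HA-G9a in CL1-0 went with a relative log2 ratio of 0.36, inside the yardstick of 0.506 but above the 0.248 of brighter probe sets. TSPAN13 has a single probe set here, so no second probe set bears on its value.

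TSPAN5 belongs to the TspanC8 subgroup, tetraspanins with 8 cysteines in the large loop that bind the protease ADAM10 and govern its exit from the endoplasmic reticulum and its place at the membrane. Its main probe set read 155 in the CL1-5 control, 12.5 after the knockdown, 30.3 with vector and 34.6 with HA-G9a. A second probe set read 138, 14.2, 22.3 and 21.2 in that order, and the third 108, 22.4, 29.3 and 25.7. All 3 probe sets put the CL1-5 control highest and the knockdown lowest. Their relative log2 ratios after the knockdown were -4.05, -3.71 and -2.69, a mean of -3.48 ± 0.71 (SD, n = 3 probe sets of 1 array pair). The main probe set stood at rank 48 from the bottom of the 13045 genes, and its knockdown signal lay at the filter, where MAS5 signals are noisy. With HA-G9a the 3 ratios were 0.27, 0.01 and -0.11, a mean of 0.06 ± 0.19, so the sign was not shared and the size was inside the yardstick. The CL1-0 arrays differed from each other far less than the CL1-5 arrays did.

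CD82, also called KAI1, restrains integrin-dependent migration and growth factor receptor signalling and is often lost in metastatic carcinoma. Its brighter probe set, of the type _x_at that can also bind related transcripts, read 64.3 in the CL1-5 control, 13.8 after the knockdown, 7.76 with vector and 38.8 with HA-G9a. The array with more G9a was thus the brighter one in both lines, and the CL1-5 control and HA-G9a arrays stood above the other two. The relative log2 ratio was -2.63 after the knockdown (rank 186 from the bottom) and 2.40 with HA-G9a (rank 77 from the top of 12791). The other probe set, of the gene-specific type _at, read 48.0, 1.29, 2.35 and 2.17 in the same order. It gave the same direction after the knockdown, at least 14.3-fold dimmer as deposited because the knockdown signal was below the floor. In CL1-0 both of its signals were below the floor, so the brighter signal with HA-G9a appears on only 1 of the 2 CD82 probe sets. The signals of CD82 were all under 84.2, in the range where probe sets of one gene differ most.

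**Figure D2:**
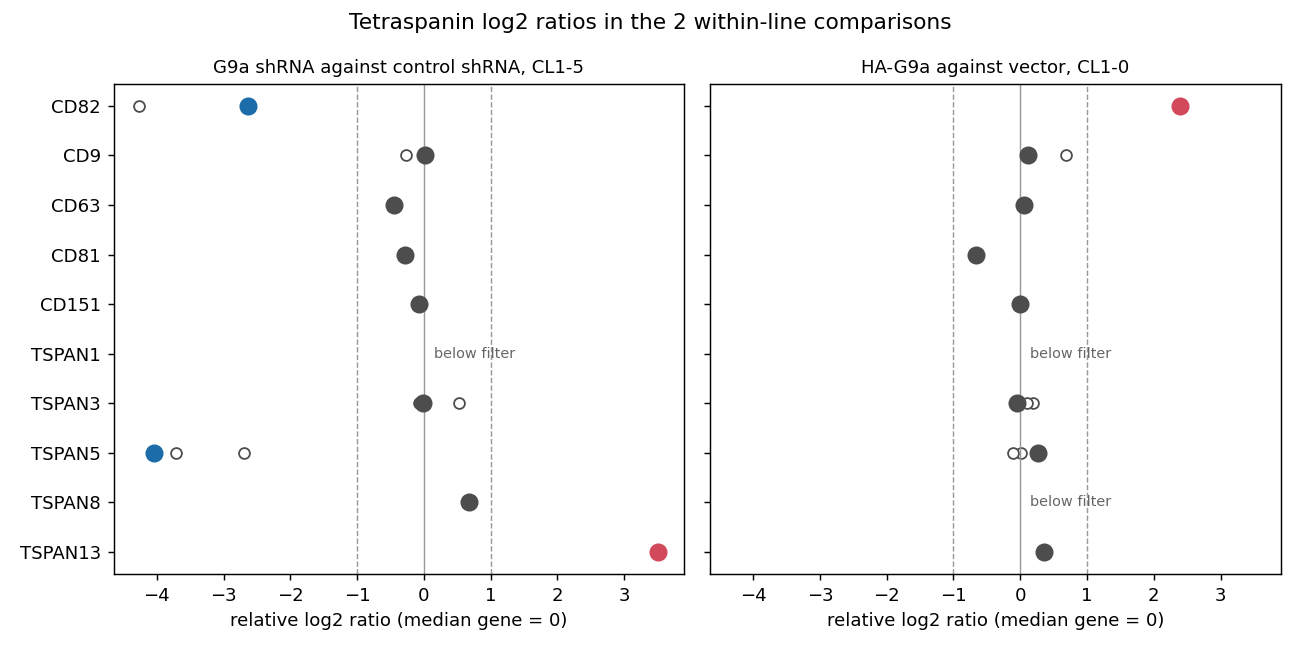
Relative log2 ratio (horizontal axis, median measured gene at 0, dashed lines at 2-fold) of each tetraspanin in CL1-5 after the G9a knockdown and in CL1-0 with HA-G9a. Large points are the representing probe set, open points other measured probe sets of the gene; 3 genes lie beyond 2-fold on the left panel, and only CD82 on the right.

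Some markers of other cell types, above all endothelial ones, moved with the knockdown as well. Over all measured genes, 8.13% were at least 2-fold brighter and 7.76% dimmer after the knockdown, and 5.46% and 3.74% with HA-G9a. Each of the 5 endothelial markers measured in the knockdown comparison was dimmer by 2-fold or more. The summed signal of the 7 on the list was 518 in the CL1-5 control, 116 after the knockdown, 64.6 with vector and 51.1 with HA-G9a. In the CL1-5 control PECAM1 read 318, CLDN5 81.8, CDH5 62.3, ERG 35.2 and KDR 17.2, and VWF and TEK read 1.97 and 1.86. Leukocyte markers summed to between 62.6 and 68.2 on every array, with PTPRC at 4.17 or less. Of 4 leukocyte markers measured in the knockdown comparison, 1 passed 2-fold, LCP1, which was dimmer (relative log2 ratio -1.01). Fibroblast markers summed to 38.2 and 83.3 in CL1-5 and 125.7 on both CL1-0 arrays. Of these 7 genes, 4 were below the filter on all arrays, and 2 were measured in the knockdown comparison. COL1A1 read 9.07 and 42.0 in CL1-5 without and with the knockdown (relative log2 ratio 1.79). In CL1-0 COL1A1 read 84.2 with vector and 55.4 with HA-G9a (-0.52), a difference that the equal sums do not show. Of the epithelial markers, 2 of 6 measured were brighter after the knockdown (CDH1 and EPCAM) and 1 dimmer (KRT8), with sums of 3768 and 3023. CDH1 read 2.36, below the floor, in the control and 77.6 after the knockdown (relative log2 ratio 4.11). With HA-G9a 3 of 7 were brighter, KRT8, KRT18 and CLDN4 (sums 733 and 2426.5). The sums were mostly KRT18, at 2945 and 2533 in CL1-5 without and with the knockdown, and 545 and 2113 in CL1-0 without and with HA-G9a. The labels give type II alveolar cells as the origin. Of 7 type II markers on the array, 6 were measured in CL1-5, 2 of them brighter after the knockdown (ABCA3 and NAPSA). The lineage factor NKX2-1 was the 1 dimmer gene (relative log2 ratio -3.35). Its probe set is of the _x_at type, and its knockdown signal of 3.87 lay next to the floor. With HA-G9a 4 of the 7 markers were measured, NKX2-1 brighter (1.03) and SFTPC dimmer (-1.58). The 7 markers summed to between 136 and 175 on the 4 arrays. The surfactant genes SFTPB, SFTPC and SFTPD read at most 40.2, 33.5 and 10.8. The part of these differences in the tetraspanin values was not tested.

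CD9, which organises adhesion and cell fusion complexes, read 1704 in CL1-5 with the control shRNA and 2298 with the knockdown, a relative log2 ratio of 0.01. In CL1-0 it read 757 with vector and 776 with HA-G9a, a relative log2 ratio of 0.12. Both CL1-5 arrays were above both CL1-0 arrays. Its 2 other probe sets stayed at or under 16.5 on all arrays, near the filter, and add no information on level.

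CD151, the main tetraspanin partner of the laminin-binding integrins, was among the most even of the set. It read 222 and 282 in CL1-5 and 193 and 181 in CL1-0, and its relative log2 ratios were -0.07 and -0.01. The whole range over the 4 arrays was 1.56-fold.

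CD81, a partner of the immunoglobulin-superfamily proteins IGSF8 and PTGFRN in many cells, read 1264 in the CL1-5 control against 1379 with the knockdown (relative log2 ratio -0.29). In CL1-0 it read 930.0 with vector and 553 with HA-G9a, a relative log2 ratio of -0.67. That is beyond the yardstick of 0.248 for bright probe sets but short of 2-fold, and it was the lowest of the 8 ratios in that comparison. The HA-G9a array was the lowest of the 4. After the knockdown the negative relative ratios of CD81, CD151 and TSPAN3 turned positive as deposited, CD81 for example from -0.29 to 0.13.

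CD63, which resides in late endosomes and lysosomes and is a standard marker of extracellular vesicles, read 2239.9 and 2197 in CL1-5 and 1834 and 1791 in CL1-0. Its range over the 4 arrays was 1.25-fold, and the signals within each line were nearly equal as deposited. The deposited log2 ratio after the knockdown was -0.03, and relative to the median gene, which was brighter on the knockdown array, it was -0.45. The relative value is beyond the yardstick of 0.302 for bright probe sets but short of 2-fold. With HA-G9a the relative ratio was 0.05.

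TSPAN3, a widely expressed tetraspanin found with claudin-11 in oligodendrocytes, had 3 measured probe sets of 5. The main one read 498, 664, 419 and 382 in the order CL1-5 control, knockdown, vector and HA-G9a, and its relative log2 ratios were -0.01 after the knockdown and -0.05 with HA-G9a. The next read 291, 369, 184 and 198, and the dimmest of the 3 read 19.1, 37.1, 23.6 and 23.9. Over the 3 probe sets the mean was 0.15 ± 0.33 (SD) after the knockdown and 0.08 ± 0.12 with HA-G9a.

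The 2 tetraspanins best known from secretory epithelia and their tumours were dim. TSPAN8, a tumour-associated antigen of gastrointestinal carcinomas, read 14.0 in the CL1-5 control against 30.1 with the knockdown, a relative log2 ratio of 0.68 and 1.10 as deposited. In CL1-0 it read 3.78 with vector and 7.32 with HA-G9a, below the filter on both arrays. TSPAN1 read 1.18, 5.82, 6.41 and 0.847 on the 4 arrays, below the filter on all of them, so its order carries no information. TSPAN1 was the only member with no measured signal.

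With HA-G9a in CL1-0, then, 1 of 8 measured tetraspanins passed 2-fold upward and none downward, where 5.46% and 3.74% of 12791 genes did. That gene was CD82, on the probe set described above. The median relative log2 ratio of the 8 was 0.08. CD82 was also the only one of the 8 past 2-fold in opposite directions in the 2 lines, as were 1.46% of the 11883 genes measured in both. At any size, CD82, CD63 and TSPAN5 had opposite signs, 3 of 8, where 51.7% of all genes did. As deposited, with no shift subtracted, it was 5 of 8, so signs of ratios this small turn with the scaling.

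The 2 control populations differ in line and in the type of control construct. Between them, 4 of 9 measured tetraspanins were at least 2-fold brighter in CL1-5 and 1 was dimmer, where 12.6% and 13.2% of 12925 genes were. CD82 had a relative log2 ratio of 3.06, TSPAN5 2.36, TSPAN8 1.91, CD9 1.18 and TSPAN13 -1.46. With the floor raised to the median of all values, TSPAN8, dim in both lines, had 0.18, and 3 members were brighter. The other 4 lay between 0.21 (CD151) and 0.46 (CD81). The CL1-5 control array is shared with the knockdown comparison and the vector array with the HA-G9a comparison, so these values are not independent of those above. As deposited, with no shift subtracted, CD82, TSPAN5 and TSPAN13 of the 9 had line differences of opposite sign between the controls and between the G9a-altered arrays. The second difference follows from the first and the 2 within-line ratios, so it is no separate observation. The share of all genes with such a pattern was not counted. The log2 signal of CL1-5 minus CL1-0 was 3.05 between the controls and -1.49 between the G9a-altered arrays for CD82, 2.35 and -1.47 for TSPAN5, and -1.47 and 2.18 for TSPAN13. CD63 had 0.29 in both pairs, less than the shift of 0.42 in the knockdown comparison, so its sign between the G9a-altered arrays depends on the scaling.

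In the comparison of both CL1-5 arrays with both CL1-0 arrays by limma, in which the spread within a line includes the change of G9a, 0 of 9 members passed an adjusted p of 0.05 (Benjamini-Hochberg), where 2.91% of 13953 genes did. At an unadjusted p under 0.05 by limma there were 2, CD9 and TSPAN8, where 20.5% of all genes passed. CD9 had a log2 difference of 1.37 ± 0.33 (SE, adjusted p = 0.11 by limma) and was higher on both CL1-5 arrays. TSPAN8 had a difference of 1.96 ± 0.55 (adjusted p = 0.143 by limma), also higher on both CL1-5 arrays, though its CL1-0 signals were below the filter. CD81 had 0.88 ± 0.38 (adjusted p = 0.282 by limma). These estimates are on log2 signals with no centring, so they include the differences in level between arrays. With each array centred on its median gene they were lower, at 1.07 for CD9, 1.66 for TSPAN8 and 0.58 for CD81. For CD82, TSPAN5 and TSPAN13 the SE was 1.05 to 1.28, and the line difference turned with the array left out. TSPAN5 was at -1.37 without the CL1-5 control and 2.26 without the knockdown array, TSPAN13 at 2.32 and -1.61, and CD82 at -0.32 and 1.89. As deposited, CD9, CD63, CD81, CD151, TSPAN3 and TSPAN8 had both CL1-5 signals above both CL1-0 signals, 6 of 9, where 37.5% of genes did. With each array centred on its median gene this held for 5 of 9, without CD63, where 25.4% of genes did.

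**Figure D3:**
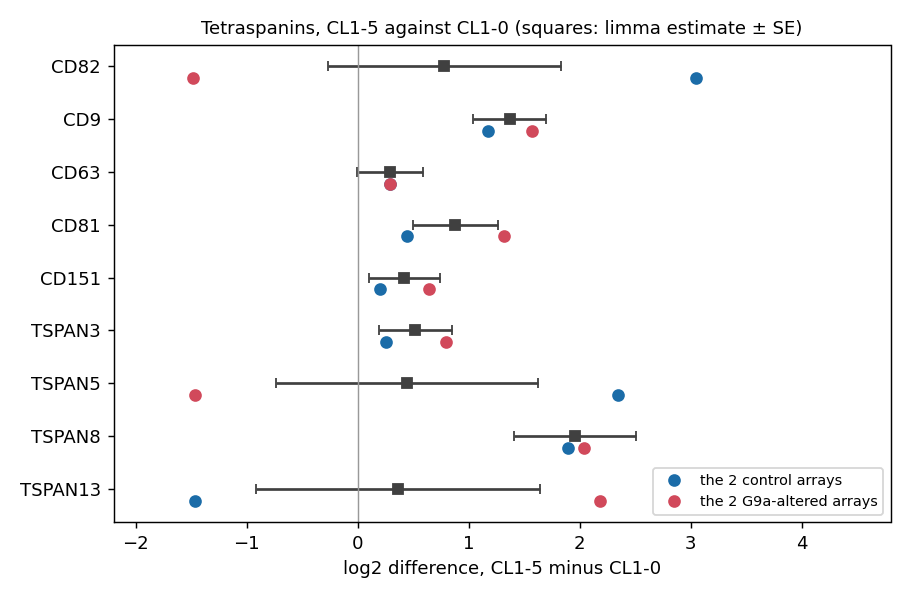
Log2 difference of CL1-5 minus CL1-0 (horizontal axis), as deposited with no centring, for the 9 measured tetraspanins. Squares with bars are the limma estimate ± SE over 2 arrays per line, blue points the control pair of arrays and red points the G9a-altered pair; the 2 points coincide for CD63 and lie on opposite sides of 0 for CD82, TSPAN5 and TSPAN13.

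The other human tetraspanins were followed as a list of 23, of which 22 were on the array. After the knockdown 15 were measured, 1 at least 2-fold brighter and 3 dimmer, where 8.13% and 7.76% of all measured genes were. Their median relative log2 ratio was 0.22. TSPAN7, found in neurons and other tissues, read 6.25 in the control and 30.8 after the knockdown (1.88). TSPAN14, another TspanC8 member, read 142 and 63.3 (-1.59), and TSPAN2 59.1 and 26.4 (-1.58). ROM1, a photoreceptor tetraspanin, was near the filter at 13.6 and 8.93 (-1.02). With HA-G9a 16 were measured, 1 brighter and 2 dimmer (median 0.04), where 5.46% and 3.74% of all measured genes were. TSPAN12, a coreceptor of Norrin and Frizzled4 signalling, read 270 with vector and 117 with HA-G9a (-1.12), and 9.15 and 12.3 on the CL1-5 arrays, so that it was the tetraspanin with the widest gap between the controls (-4.87). TSPAN10 read 9.35 with vector and 20.1 with HA-G9a (1.19), and PRPH2, another photoreceptor gene, 20.8 and 1.44 (-2.55), the latter against the floor.

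The TspanC8 list held both dimmer genes and genes near the median. After the knockdown TSPAN5 and TSPAN14 were at least 2-fold dimmer and none of the 7 genes on the list, ADAM10 included, was 2-fold brighter. Of all measured genes, 7.76% were dimmer and 8.13% brighter. TSPAN17 read 271 in the control and 491 after the knockdown, a relative log2 ratio of 0.44, TSPAN33 125 and 229 (0.45), TSPAN15 47.1 and 69.1 (0.13), and TSPAN10 13.4 and 33.0 (0.89). ADAM10 itself, the protease that sheds Notch, cadherins and other substrates, read 635 and 1099.6 (0.37). With HA-G9a only TSPAN10 passed 2-fold, upward, as did 5.46% of all measured genes, and the median of the 7 was 0.03. Both TSPAN5 and TSPAN14 were brighter in the CL1-5 control than in the CL1-0 vector array, at 155 against 30.3 and 142 against 56.1. The CL1-5 control array is shared with the knockdown comparison, so this is not independent of their knockdown ratios.

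**Figure D4:**
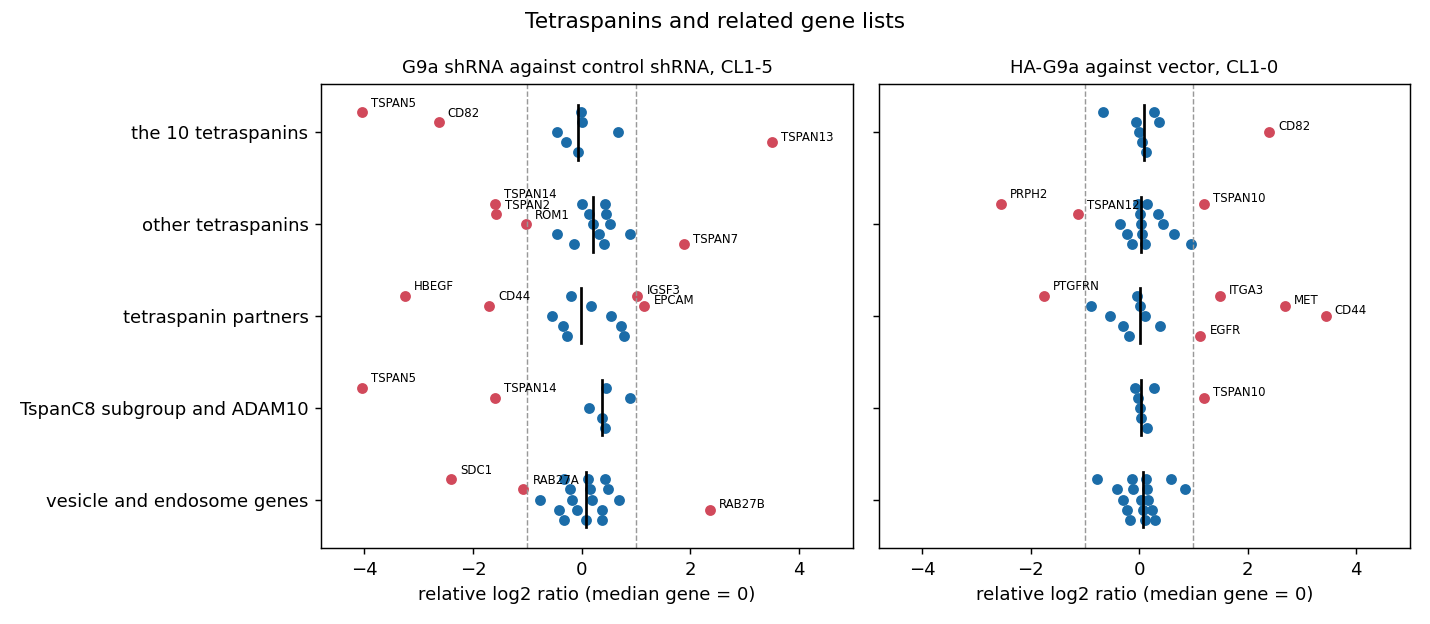
Relative log2 ratios (horizontal axis, dashed lines at 2-fold) of the measured genes of 5 lists in the 2 within-line comparisons. Each point is a gene, red and named where it lies past 2-fold, and black bars are list medians, lowest at -0.07 and highest at 0.37 on the left, and 0.02 and 0.08 on the right; the TspanC8 genes also appear in 1 of the first 2 lists.

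Partners of tetraspanins at the membrane split in direction. After the knockdown 12 of 15 were measured, 2 at least 2-fold brighter and 2 dimmer (median -0.01), where 8.13% and 7.76% of all measured genes were. HBEGF, the growth factor precursor that CD9 binds, read 1587 and 223 (-3.25), and CD44, a hyaluronan receptor found in tetraspanin complexes, had a ratio of -1.70. IGSF3 read 131 and 359 (1.03), and EPCAM, dim on all arrays, had a ratio of 1.16. With HA-G9a 13 were measured, 4 brighter and 1 dimmer, where 5.46% and 3.74% of all measured genes were. The brighter ones were CD44 (3.44), MET (2.68), ITGA3 (1.49) and EGFR (1.13). PTGFRN, a CD9 and CD81 partner, was dimmer at 13.5 and 3.79 (-1.75). ITGB1, the common integrin beta chain, had ratios of -0.26 and 0.10. Between the controls 7 of 13 were brighter in CL1-5 and 2 dimmer, where 12.6% and 13.2% of all measured genes were. The median was 1.86, where the 9 tetraspanins had 0.46.

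Genes of vesicle formation and endosomes, the compartment of CD63, were mostly near the median gene. After the knockdown 19 were measured, 1 brighter and 2 dimmer (median 0.08), where 8.13% and 7.76% of all measured genes were. RAB27B read 11.4 and 78.4 (2.36) and its paralog RAB27A 215 and 137 (-1.07), both of them GTPases of vesicle secretion. SDC1, the syndecan that works with syntenin in vesicle budding, read 1082 and 272 (-2.41). With HA-G9a none of 17 measured genes passed 2-fold in either direction (median 0.07), where 5.46% of all measured genes were brighter and 3.74% dimmer.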

How the data were processed

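RNA of 4 cell populations was measured on 1 array each. The deposited table holds 1 intensity for each of 54675 probe sets and array. MAS5 is the only tool named per the submitters' processing notes, with no settings, scaling or detection calls stated there. Probe sets were named from the platform annotation (41097 with 1 gene symbol, 1801 with several, 11777 unlisted), with symbols updated by Entrez identifier for 41043. A total of 58 probe sets, of Y-linked genes or of 1 X-linked transcript, were left out.

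Signals were floored and log2-transformed, and within-line ratios were centred on the median measured gene. Both CL1-5 arrays were set against both CL1-0 arrays with limma 3.58.1 (R 4.3.3, lmFit and eBayes, 2 residual degrees of freedom, Benjamini-Hochberg over all measured genes), a step tested on simulated data. The log2 signals in that step were not centred. The 2 arrays of a line are a control and a G9a-altered population, not replicates. The spread behind the p-values thus includes the G9a change and cannot separate it from variation between populations. Other steps used Python 3.11.15, pandas 2.3.3 and NumPy 2.4.6. Scaling, floor, filter, probe set rule and threshold were varied. All 10 members and EHMT2 were named, and of each other list up to 4 genes past 2-fold per within-line comparison. The members of the TspanC8 list, the genes of the marker lists and ITGB1 were named outside that rule, after their values were seen. The members and lists were chosen with earlier results of these data known. Precision is limited by there being 4 arrays.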

Additional observations from a re-analysis of the deposited data

Results flagged for a closer look

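CD82 stood out because its 2 within-line differences were past 2-fold in opposite directions. Its relative log2 ratio was -2.63 after the knockdown in CL1-5 and 2.40 with HA-G9a in CL1-0, on the probe set of the _x_at type. The difference between the lines was not tested, since each group is 1 array. On the other CD82 probe set both CL1-0 signals, 2.35 and 2.17, were below the floor.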

How the results depend on the processing

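TSPAN13, TSPAN5 and CD82 kept their direction and stayed past 2-fold after the knockdown under every setting that measured them. With the stricter filter, which removes CD82 and TSPAN8 throughout and TSPAN5 in CL1-0, the knockdown count of dimmer members was 1 in place of 2, HA-G9a had 0 brighter members, the controls had 2 brighter members in place of 4, the opposite pattern past 2-fold held for 0 genes and opposite signs for 1. As deposited, with no centring, 2 members were brighter after the knockdown (TSPAN8 joined TSPAN13) and 5 had opposite signs. With probe sets free of a shared-sequence suffix, an alternative chosen after seeing the data, HA-G9a had 0 brighter members and the opposite pattern past 2-fold 0 genes, since CD82 was then below the filter in CL1-0. At 1.5-fold, 2 members were brighter after the knockdown and 1, CD81, was dimmer with HA-G9a. At 4-fold, 2 members were brighter and 0 dimmer between the controls. In the limma line comparison 0 members passed under any of 15 settings, while the genes called overall were 406, with 254 when the G9a arm was in the model, 265 with the floor at 1 and 17 with no filter. Leaving out any 1 array, which leaves the lone array of a line assumed to vary like the other line, gave 0 calls (range 0 to 0), with 1275 to 4190 genes at an unadjusted p under 0.05. Replicates could not be paired, since each group is 1 array. Signals near the floor limit CD82, TSPAN8 and TSPAN1.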
